A study of Mus musculus with 17 samples.

Results

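The NF-kB genes read by the panel were 4 of the 988 genes counted: Nfkb1 and Rela, which encode the p50 precursor and the p65 subunit of the factor, and Nfkbia and Nfkbib, which encode the cytoplasmic inhibitors IkB-alpha and IkB-beta. They were taken as all rows whose symbol begins with Nfkb or equals Rel, Rela or Relb. The other subunit genes, Nfkb2, Rel and Relb, were not analysed here. All mice received the carcinogen azoxymethane by intraperitoneal injection, so no group was free of it. Kit-B6 mice were C57BL/6 animals that carry an intact Kit locus. Kit-W/sh mice were of the W-sash strain, whose regulatory mutation at the Kit locus leaves adults with few mast cells. The mutation also acts on Kit in cells other than mast cells. Tumors came from mice at postnatal week 32, after 6 injections over 6 weeks and a further 18 weeks (6 Kit-B6 and 6 Kit-W/sh samples). Preneoplastic colon came from mice at postnatal week 14, after 3 injections over 3 weeks and a further 3 weeks (3 Kit-B6 and 2 Kit-W/sh samples). The labels did not state that each sample came from a different mouse, so p-values speak only to how far these particular samples spread. The deposited tables of Kit-B6 tumors 4 and 5 share a code in their names that no label explains, so whether these 2 tumors came from 1 mouse is unknown, and n counts tumors.

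NF-kB is a dimer of Rel-family proteins that is held in the cytoplasm by IkB proteins. Signals from TNF, interleukin 1 or Toll-like receptors activate the IkB kinase complex, the inhibitor is phosphorylated and degraded, and the freed p50/p65 dimer enters the nucleus and turns on cytokine, chemokine, adhesion and survival genes. Nfkbia is one of those targets, so the new inhibitor ends the response, and its transcript is widely read as a sign of recent NF-kB activity. Nfkbib is induced less readily, and much of the regulation of p65 takes place on the protein, which transcript counts do not measure. In the colon the pathway acts in epithelium, in infiltrating myeloid cells and in lymphocytes, and bulk tissue does not separate them. Fewer cells of a type and less RNA per cell cannot be told apart in such samples.

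The region before the start of Nfkbia is printed because NF-kB is known to act on this gene through kappaB motifs, and that of Rela because it encodes a subunit of the factor and was called between stages. Both are from RefSeq on GRCm38.p6, 250 bases up to the transcription start, written 5′ to 3′ on the strand of the gene. They lie at chr12:55492648-55492897 (minus strand) for Nfkbia and at chr19:5637291-5637540 (plus strand) for Rela. Capitals mark matches, on either strand, to the kappaB decamer consensus or to GGACTTTCC.
Nfkbia: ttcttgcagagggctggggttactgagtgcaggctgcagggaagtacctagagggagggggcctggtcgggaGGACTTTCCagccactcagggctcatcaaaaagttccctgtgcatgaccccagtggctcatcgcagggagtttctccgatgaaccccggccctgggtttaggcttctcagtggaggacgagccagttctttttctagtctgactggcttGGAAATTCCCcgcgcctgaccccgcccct
Rela: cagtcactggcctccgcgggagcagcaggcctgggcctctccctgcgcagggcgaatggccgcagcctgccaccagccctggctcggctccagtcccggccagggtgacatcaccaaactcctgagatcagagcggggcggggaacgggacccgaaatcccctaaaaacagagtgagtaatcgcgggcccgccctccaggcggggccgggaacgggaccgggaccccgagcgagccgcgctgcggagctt
The Nfkbia window held 1 decamer match beginning 29 bases before the start, on the opposite strand, and 1 GGACTTTCC beginning 178 bases before it, and these did not overlap. The windows of Rela and Nfkbib held 0 matches to either. Of 32851 windows of this length, 7.25% held the decamer and 0.283% held GGACTTTCC. Promoters matched 3 of the 4 genes by symbol. A match describes letters, not a bound site.

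Library totals ran from 616009 to 1399902 counts, and 886 to 922 genes had a count in each library. Totals in preneoplastic colon were 616009 to 703549 in Kit-B6 and 621141 to 815973 in Kit-W/sh. In tumors they were 616554 to 1399902 in Kit-B6 and 1049408 to 1262171 in Kit-W/sh, so depth differed with stage in Kit-W/sh without overlap. The 4 genes had between 117 and 5055 counts in every library, with the fewest for Nfkb1. Levels are given as library-scaled counts (CPM) after scaling the libraries by trimmed mean of M values (TMM), and they are compared between samples, not between genes, because amplicons differ in efficiency. Kit ranged from 93.7 to 473 CPM among Kit-B6 tumors and from 48.9 to 258 CPM among those of Kit-W/sh, but the mast cell protease Cpa3 reached 460 CPM in 1 library, labelled Kit-W/sh tumor 2, against 0 to 9.81 CPM in the other 5 Kit-W/sh tumors and 11.3 to 256 CPM in Kit-B6 tumors. That Cpa3 level is unlike the rest of its group, but whether the library is mislabelled was not tested. The main results that hold this library are also given without it. Epcam and Car4, the 2 epithelial markers measured, summed to 24481 to 122997 CPM, so epithelial RNA was present in every library.

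The fitted level of Nfkbia in Kit-W/sh was 1.63 times that in Kit-B6 in tumors and 1.73 times in preneoplastic colon, and neither difference passed the adjustment over all genes. In preneoplastic colon the Kit-B6 samples read 1828, 1936 and 1522 CPM, against 2939 and 3249 CPM for Kit-W/sh. Both Kit-W/sh values lay above all 3 Kit-B6 values. The log2 fold change was 0.79 ± 0.17 (SE, 95% interval 0.38 to 1.19), with an unadjusted p of 0.00278, the seventh smallest of 777 genes, and an adjusted p of 0.253 by edgeR's quasi-likelihood test. In that comparison edgeR called 0.129% of the genes tested and 10.7% had an unadjusted p under 0.05, while the groups did not overlap for 29.7% of them, with Kit-W/sh higher for 16.3% and lower for 13.4%. DESeq2 called Nfkbia (0.79 ± 0.22, adjusted p = 0.0214), where it called 2.14% of genes.

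In tumors Nfkbia had its lowest, median and highest level at 1278, 1654 and 2864 CPM in Kit-B6 and at 1741, 3110 and 4329 CPM in Kit-W/sh. The groups overlapped, as they did for all but 0.626% of genes, although 6 of 6 Kit-W/sh tumors lay above the Kit-B6 median and 3 above the highest Kit-B6 tumor. The lowest Kit-W/sh value was that of the library labelled Kit-W/sh tumor 2, and the highest Kit-B6 value was that of Kit-B6 tumor 5. The log2 fold change was 0.71 ± 0.24 (95% interval 0.19 to 1.23, edgeR adjusted p = 0.229), and edgeR called 0% of 799 genes and DESeq2 3.35%, without Nfkbia (adjusted p = 0.128). Without the library labelled Kit-W/sh tumor 2 the log2 fold change was 0.82 ± 0.22 (edgeR adjusted p = 0.0798), without Kit-B6 tumor 5 it was 0.88 ± 0.23 (adjusted p = 0.144), and without Kit-B6 tumor 4 it was 0.60 ± 0.25 (adjusted p = 0.342). Averaged over both stages with equal weight, a contrast chosen after the 2 differences were seen, it was 0.77 ± 0.21 (unadjusted p = 0.00178, edgeR adjusted p = 0.224). DESeq2 gave an adjusted p of 0.0487 for the same contrast. There it gave an adjusted p to only 573 genes, against 869 genes by edgeR, so the 2 adjustments are unlike. Of these genes edgeR called 0% and DESeq2 2.44%, with 13.1% at an unadjusted p under 0.05 by edgeR.

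**Figure D1:**
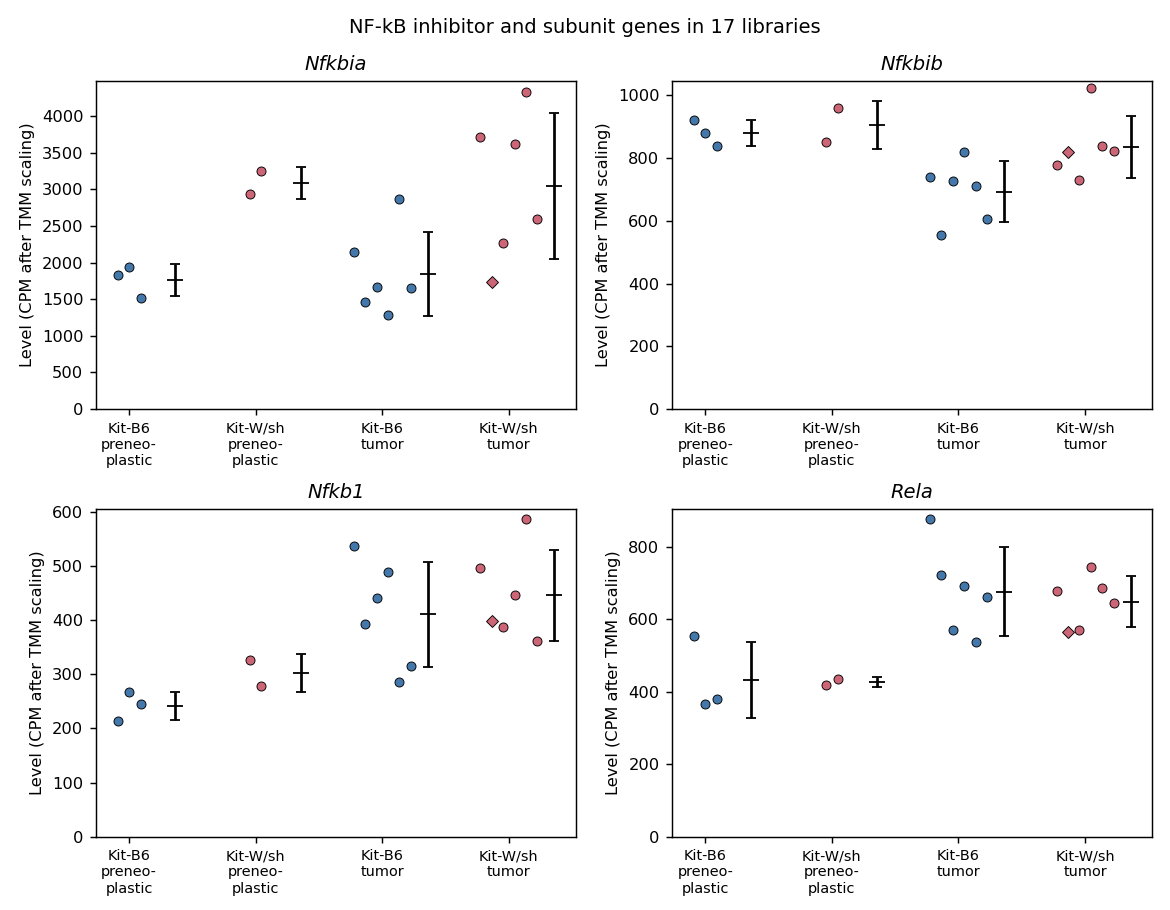
Level in CPM of the 2 inhibitor genes (top) and the 2 subunit genes (bottom) in each library, by genotype and stage, with the mean and SD of each group as bars beside the points. The diamond is the library labelled Kit-W/sh tumor 2, with the lowest Nfkbia of its group at 1741 CPM, and Nfkb1 and Rela sit higher in tumors of either genotype.

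Markers of neutrophils stood apart between genotypes in tumors and overlapped in preneoplastic colon. The 5 neutrophil markers measured summed to 61.8 to 259 CPM in Kit-B6 tumors and to 274 to 769 CPM in Kit-W/sh tumors, without overlap, and the library labelled Kit-W/sh tumor 2 was the lowest of its group there too. Of the 3 tested, Cxcr2, Fpr1 and Csf3r, all had a positive log2 fold change (median 1.49, and 1.63 without the library labelled Kit-W/sh tumor 2) and 0 passed. Their part in the Nfkbia difference between tumors was not tested. In preneoplastic colon the same markers summed to 6.20 to 12.8 CPM in Kit-B6 and 7.24 to 15.1 CPM in Kit-W/sh, with Cxcr1 and Mpo at 0 in all 5 libraries. The 10 monocyte and macrophage markers measured summed to 1545 to 4116 CPM in Kit-B6 and 2795 to 4410 CPM in Kit-W/sh tumors, with Marco at 0 throughout. In preneoplastic colon they summed to 1291 to 1406 and to 1335 and 1598 CPM. B cell markers summed to 152 to 2916 CPM in Kit-B6 and to 151 and 327 CPM in Kit-W/sh preneoplastic colon, which also was not tested against Nfkbia.

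No stage difference was detected for Nfkbia. Tumors against preneoplastic colon gave 0.07 ± 0.27 in Kit-B6 (95% interval -0.51 to 0.65, edgeR adjusted p = 0.855) and -0.02 ± 0.31 in Kit-W/sh (-0.69 to 0.64, adjusted p = 0.957), and the Kit-W/sh value changed sign with unscaled totals and with reference-gene scaling. Within-group spread was wider in tumors, with a coefficient of variation of 31.3% in Kit-B6 and 32.6% in Kit-W/sh tumors against 12.2% and 7.09% in preneoplastic colon. Over all genes the median coefficient of variation was wider in tumors too, at 36.3% and 26.2%, against 25.6% and 11.7% in preneoplastic colon.

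Nfkbib, the second inhibitor, ranged from 556 to 1022 CPM, and its highest level over its lowest (1.84) was the smallest such ratio of the 4 genes. In tumors its lowest, median and highest level was 556, 720 and 820 CPM for Kit-B6, against 729, 821 and 1022 CPM for Kit-W/sh. The groups overlapped, and the log2 fold change of 0.26 ± 0.12 (edgeR adjusted p = 0.386, 95% interval -0.01 to 0.52) did not pass. In preneoplastic colon it was at 922, 880 and 839 CPM in Kit-B6 and at 850 and 959 CPM in Kit-W/sh, a difference of 0.02 ± 0.14 (-0.33 to 0.36), with 1 Kit-W/sh sample inside the Kit-B6 range and 1 above it. All 6 Kit-B6 tumors lay below all 3 Kit-B6 preneoplastic samples (-0.34 ± 0.14), just short of a call by edgeR (adjusted p = 0.0575) and just past it by DESeq2 (adjusted p = 0.04997). Tumors were lower without overlap for 13.1% of genes there, and DESeq2 called 42.6%. In Kit-W/sh the stage difference was -0.12 ± 0.16 (edgeR adjusted p = 0.578).

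The subunit genes changed with stage and not detectably with genotype. Nfkb1, whose product p105 is processed to p50, rose from 242 ± 26.2 CPM (SD, n = 3) to 411 ± 97.6 CPM (n = 6) in Kit-B6 mice. The 3 preneoplastic samples were at 215, 267 and 245 CPM, below every tumor, and the tumors had a lowest, median and highest level of 287, 418 and 536 CPM. The log2 fold change was 0.76 ± 0.22 (edgeR adjusted p = 0.0115), and it stayed past the threshold in all 16 alternative fits run (0.67 to 1.01). In Kit-W/sh mice Nfkb1 was at 327 and 278 CPM in preneoplastic colon and at 362, 422 and 587 CPM (lowest, median, highest) in tumors. The groups again did not overlap, but the log2 fold change of 0.56 ± 0.25 missed the threshold (edgeR adjusted p = 0.0859) and passed it with unscaled totals (0.81 ± 0.26, adjusted p = 0.0197) and reference-gene scaling (0.75 ± 0.22, adjusted p = 0.015).

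Rela, the transactivating p65 subunit, rose with stage in both genotypes. In Kit-B6 preneoplastic samples 1 to 3 the level was 554, 366 and 380 CPM, and the tumors had a lowest, median and highest level of 537, 677 and 878 CPM. Preneoplastic sample 1 reached into the tumor range and the other 2 did not. The log2 fold change was 0.64 ± 0.18 (edgeR adjusted p = 0.00998), and it was 0.54 without preneoplastic sample 2 and 0.56 without sample 3, where the call ended (adjusted p = 0.0603 and 0.0553). In Kit-W/sh Rela was at 418 and 436 CPM in preneoplastic colon and at 565, 661 and 745 CPM in tumors, with no overlap (0.60 ± 0.21, edgeR adjusted p = 0.032). That call ended without Kit-W/sh tumor 4 (0.56 ± 0.21, adjusted p = 0.0537) or without either preneoplastic sample (adjusted p = 0.184 and 0.128), and held without the library labelled Kit-W/sh tumor 2 (0.64 ± 0.21, adjusted p = 0.027).

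These calls stood in comparisons where many genes moved. In Kit-B6, 2 of the 4 genes were called, where edgeR called 41.1% of 869 genes, 22.2% as higher and 18.9% as lower. In Kit-W/sh, 1 of the 4 was called, against 39.7% of all genes, 20.9% as higher and 18.8% as lower. Groups that do not overlap were also common there, at 29.3% of genes in Kit-B6 (16.2% with tumors higher) and 58.2% in Kit-W/sh (29.6% higher and 28.7% lower). With unscaled totals the median gene shifted up by 0.25 in both stage comparisons, and with reference-gene scaling by 0.19 in Kit-W/sh. The share of called genes that were higher was 54.1% in Kit-B6 and 52.8% in Kit-W/sh, against 73.0% and 70.1% with unscaled totals and 52.5% and 67.3% with reference-gene scaling. Stage was tied to age, dose and tissue, and these cannot be told apart. Some markers of other cell types changed as well, and their part in the subunit changes was not tested. Of the 3 fibroblast markers tested in Kit-B6, 2 rose and 1 fell, of 4 neutrophil markers 3 rose, of 9 macrophage markers 4 rose and 1 fell, and of 3 endothelial markers 1 rose. In Kit-W/sh these counts were 2 and 1 of 3, 3 of 4, 7 and 1 of 9, and 2 of 3. Of 7 B cell and 11 T cell markers tested, 4 and 4 fell in Kit-B6, and 0 and 1 in Kit-W/sh. Of the 2 epithelial markers, Car4, a carbonic anhydrase of mature colonocytes, fell in both genotypes (-3.71 ± 1.15 and -5.30 ± 1.26, edgeR adjusted p = 0.0176 and 0.0045), and no change was detected for Epcam, an adhesion molecule of epithelium (0.02 ± 0.16 and -0.08 ± 0.18). Their sum was 50711 to 122997 CPM in Kit-B6 preneoplastic colon and 25387 to 49442 CPM in Kit-B6 tumors, and 88899 and 89668 CPM against 24481 to 30382 CPM in Kit-W/sh, without overlap in either.

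Between genotypes no difference was detected for the subunits. In tumors the log2 fold change was 0.11 ± 0.18 for Nfkb1 (95% interval -0.28 to 0.50) and -0.08 ± 0.14 for Rela (-0.37 to 0.22). In preneoplastic colon it was 0.30 ± 0.23 for Nfkb1 (-0.26 to 0.86), with both Kit-W/sh samples above all 3 Kit-B6 samples, and -0.04 ± 0.24 for Rela (-0.62 to 0.53). None of these passed (edgeR adjusted p from 0.65 to 0.959). Of all genes, 16.3% had Kit-W/sh higher without overlap in preneoplastic colon. The genotype difference did not change detectably with stage for any of the 4 genes. The genotype-by-stage term was -0.09 ± 0.42 for Nfkbia, 0.23 ± 0.22 for Nfkbib, -0.20 ± 0.32 for Nfkb1 and -0.04 ± 0.27 for Rela (edgeR adjusted p from 0.854 to 0.976), and edgeR called 0% of genes, with 7.25% at an unadjusted p under 0.05, and DESeq2 0.104%. The sign of this term changed with reference-gene scaling for Nfkbia, Nfkb1 and Rela.

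**Figure D2:**
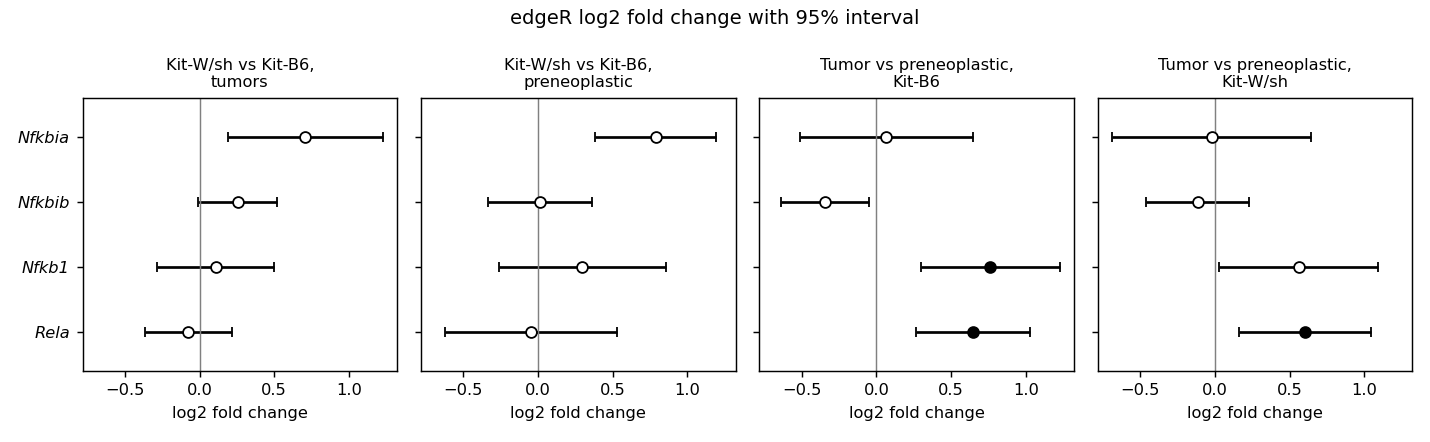
Log2 fold change of each gene (x axis) with its 95% interval from the edgeR fit, in the 2 genotype and the 2 stage comparisons. Filled points passed the adjustment over all genes: Nfkb1 and Rela in Kit-B6 and Rela in Kit-W/sh, all 3 higher in tumors.

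The level of the inhibitor relative to the subunits was followed within each library, as the log2 count of Nfkbia minus the mean log2 count of Nfkb1 and Rela. Library scaling does not enter this measure, and only its differences between samples are meaningful. Its mean was higher in Kit-W/sh at both stages and lower in tumors in both genotypes, and no difference passed after adjustment. In preneoplastic colon it was 2.40, 2.63 and 2.32 in Kit-B6 and 2.99 and 3.22 in Kit-W/sh, without overlap. The difference was 0.65 (exact permutation p = 0.1, two-sided, the smallest that 3 against 2 samples allow).

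In tumors the ratio had its lowest, median and highest value at 1.13, 1.69 and 2.87 in Kit-B6 and at 1.87, 2.54 and 2.77 in Kit-W/sh. Kit-B6 tumor 5 was the highest of all 12, and the other 5 Kit-B6 tumors lay below every Kit-W/sh tumor. The difference was 0.67 (two-sided exact permutation p = 0.0455, adjusted over the 4 ratio comparisons p = 0.107). It was 0.78 without the library labelled Kit-W/sh tumor 2 (exact p = 0.0281) and 0.88 without Kit-B6 tumor 5 (exact p = 0.00433). Without tumor 5 the groups no longer overlapped, so that p follows from which tumor was left out. Leaving out any 1 of the other 10 tumors gave 0.54 to 0.70, with exact p from 0.0519 to 0.0801. Against Rela alone the difference was 0.76 (exact permutation p = 0.026).

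Between stages the ratio differed by -0.67 in Kit-B6 (two-sided exact permutation p = 0.107) and by -0.66 in Kit-W/sh (exact permutation p = 0.0714, where 0.0357 is the smallest possible), and the adjusted p was 0.107 for each. Both Kit-W/sh preneoplastic samples were above all 6 Kit-W/sh tumors. In Kit-B6 only tumor 5 exceeded the preneoplastic samples, and without it the difference was -0.89 (exact p = 0.0179). That is the smallest p the remaining samples allow, and it follows from which tumor was left out. Leaving out any 1 other Kit-B6 sample gave exact p from 0.125 to 0.214. The ratio comparisons share groups, so they are not independent of one another.

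**Figure D3:**
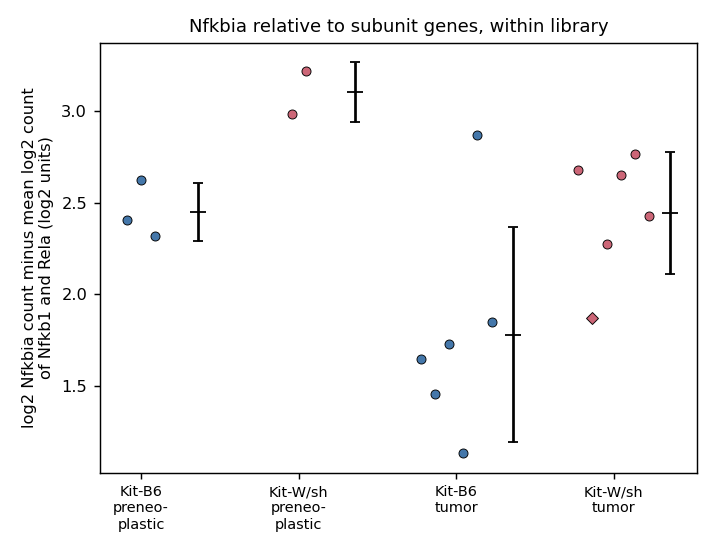
Log2 count of Nfkbia minus the mean log2 count of Nfkb1 and Rela (y axis, which does not start at 0) in each library, by genotype and stage, with the mean and SD of each group as bars. The diamond is the library labelled Kit-W/sh tumor 2 at 1.87, and the highest Kit-B6 tumor is number 5 at 2.87.

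Within the 12 tumors pooled, after the mean of each genotype was removed, no relation of Nfkbia with the other 3 genes was detected. Pearson's r with Rela was 0.21 (permutation p = 0.505) and Spearman's rho 0.15 (p = 0.634), with Nfkb1 0.14 (p = 0.665) and 0.13 (p = 0.685), and with Nfkbib 0.23 (p = 0.479) and 0.29 (p = 0.355). Adjusted over these 3 relations, p was 0.665 for each r and 0.685 for each rho. Without the library labelled Kit-W/sh tumor 2, over 11 tumors, r was 0.05 with Rela, 0.06 with Nfkb1 and 0.24 with Nfkbib, and rho was 0.13, 0.21 and 0.32 (the lowest of these 6 unadjusted permutation p-values was 0.342). Leaving out Kit-B6 tumors 1 and 5 gave 0.58 with Rela and 0.46 with Nfkb1, and leaving out Kit-B6 tumor 2 and Kit-W/sh tumor 4 gave 0.02 with Nfkbib. The pooled r held unlike values of the genotypes. With Rela it was -0.27 in Kit-B6 and 0.88 in Kit-W/sh tumors, with Nfkb1 -0.44 and 0.80, and with Nfkbib 0.09 and 0.37. Without the library labelled Kit-W/sh tumor 2 the Kit-W/sh values were 0.81, 0.91 and 0.48. Whether these relations differ between genotypes was not tested.

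Of the 798 other genes tested in tumors, the 5 most like Nfkbia on that measure were Tgif1, Tmem173, Cd44, Tnf and Creb3l2. Their Pearson's r over 12 tumors, given as a description of genes picked as the highest, was 0.84, 0.81, 0.80, 0.79 and 0.79. The points share library scaling factors across genes. Without the library labelled Kit-W/sh tumor 2 these were 0.79, 0.71, 0.83, 0.86 and 0.70, and Tmem173 and Creb3l2 then ranked 21 and 24 of 798. Tnf encodes the cytokine that is a classical activator of NF-kB and is itself an NF-kB target. It was at 93.4 ± 26 CPM in Kit-B6 and 175 ± 37.2 CPM in Kit-W/sh preneoplastic colon (0.88 ± 0.35, edgeR adjusted p = 0.461), and at 166 ± 83.4 CPM and 309 ± 148 CPM in tumors (0.88 ± 0.38, edgeR adjusted p = 0.349, and 0.94 ± 0.41 without the library labelled Kit-W/sh tumor 2). Cd44, an adhesion receptor, and Tmem173, the cytosolic DNA sensor adaptor STING, rose with stage in Kit-B6 by 1.89 ± 0.41 and 2.59 ± 0.39 (edgeR adjusted p = 0.00207 and 0.000136), where no change of Nfkbia was detected.

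Upstream of the 4 genes, no ligand, receptor, adaptor or kinase gene was called between genotypes by edgeR with all libraries in the fit, while several were called between stages. The only such gene called once 1 library was left out was Il18, an inflammasome product, without Kit-B6 preneoplastic sample 1 (1.64 ± 0.21, edgeR adjusted p = 0.0162). In that fit 16 genes were called in all, against 1 with all libraries. In tumors, 9 of 11 tested ligand genes had a positive genotype difference (median log2 fold change 0.94), with 0 called and 8 at an unadjusted p under 0.05. Of all 799 genes, 385 had a positive difference (median -0.01) and 13.6% an unadjusted p under 0.05. Il1a and Il1b, the interleukin 1 cytokines, differed by 1.99 ± 0.55 and 1.91 ± 0.56, and Il33 by 1.14 ± 0.33 (edgeR adjusted p = 0.154 for each). Of 12 receptor genes 7 had a positive difference (median 0.13) and 3 an unadjusted p under 0.05, led by the TNF receptor Tnfrsf1b at 0.70 ± 0.16 (adjusted p = 0.154). In preneoplastic colon 5 of 8 ligand genes had a positive difference (median 0.49), with Il18 at 1.18 ± 0.39 (edgeR adjusted p = 0.398). Of 12 receptor genes there 4 had one (median -0.20). With DESeq2, 3 ligand genes and 1 receptor gene were called in tumors, where it called 3.35% of all genes. Without the library labelled Kit-W/sh tumor 2, edgeR still called 0 of all genes in tumors and 19.3% had an unadjusted p under 0.05, 8 of 11 ligand genes had a positive difference (median 1.02) and 6 of 12 receptor genes (median 0.04), and Il1a, Il1b, Il33 and Tnfrsf1b were at 2.18, 2.11, 1.29 and 0.78 (edgeR adjusted p = 0.0517 for each). With stage, 6 of 11 ligand genes rose and 1 fell in Kit-B6 and 4 rose and 1 fell in Kit-W/sh, and in each genotype 3 of 13 receptor genes rose and 2 fell, where 41.1% and 39.7% of all genes were called. Leaving out 1 library gave 3 to 6 called receptor genes in Kit-B6 (3 without any 1 preneoplastic sample). Of all genes 265 to 425 were called in those fits. In Kit-W/sh fewer receptor genes were called without preneoplastic sample 1 or 2, as were fewer of all genes. Il33, an alarmin, rose by 3.06 ± 0.50 and 4.93 ± 0.68 (edgeR adjusted p = 0.00026 and 0.000136), and Il1a by 3.12 ± 0.78 and 5.80 ± 1.06 (adjusted p = 0.00526 and 0.000799). Preneoplastic Il1a was low, at 12.6 ± 0.22 CPM in Kit-B6 and 7.96 ± 1.53 CPM in Kit-W/sh, so its fold changes rest on few counts.

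Among the adaptor and kinase genes, 9 tested in tumors and 8 in preneoplastic colon, 0 had an unadjusted p under 0.05 between genotypes (edgeR), and the medians were 0.04 and 0.05. The scaffold gene of the IkB kinase complex, Ikbkg, was at 189 ± 13.4 CPM in Kit-W/sh and 229 ± 31.7 CPM in Kit-B6 tumors (-0.29 ± 0.14, edgeR adjusted p = 0.409). With stage, 3 of the 9 fell in both genotypes and 0 rose: Chuk, Ikbke and Tbk1. Of all genes 18.9% and 18.8% were called lower, and 41.1% and 39.7% were called in either direction. Without Kit-W/sh preneoplastic sample 1 fewer of the 9 were called in Kit-W/sh, as were fewer of all genes. Chuk, the IKK-alpha catalytic subunit, fell from 1152 ± 212 to 762 ± 102 CPM in Kit-B6 (-0.60 ± 0.17, edgeR adjusted p = 0.00953) and fell in Kit-W/sh (-0.67 ± 0.19, adjusted p = 0.0113). Ikbke and Tbk1, the IKK-related kinases of the interferon pathway, had log2 fold changes of -1.39 ± 0.21 and -0.91 ± 0.13 in Kit-B6 and of -1.32 ± 0.24 and -0.64 ± 0.15 in Kit-W/sh (edgeR adjusted p from 9.86e-05 to 0.00421). Ikbkb, which encodes the catalytic subunit that acts on IkB in the canonical pathway, was at 425 ± 51.5 CPM in Kit-B6 preneoplastic colon and 399 ± 46.7 CPM in Kit-B6 tumors (-0.09 ± 0.16, edgeR adjusted p = 0.669).

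Among 5 other inhibitor and feedback genes, all 5 had a positive log2 fold change in Kit-W/sh tumors (median 0.60) and 4 of 5 in Kit-W/sh preneoplastic colon (median 0.48), with 0 called in either. Of all genes, 385 of 799 and 380 of 777 had a positive one. The cytokine signalling inhibitor Socs3 was at 538 ± 178 against 310 ± 151 CPM in tumors (0.78 ± 0.35, edgeR adjusted p = 0.363), and at 0.94 ± 0.32 without the library labelled Kit-W/sh tumor 2 (adjusted p = 0.139). The deubiquitinase Cyld, which dampens signalling to the IkB kinase, was at 660 ± 31.6 against 504 ± 24.2 CPM in preneoplastic colon (0.36 ± 0.15, edgeR adjusted p = 0.461). With stage, Il1r2, the interleukin 1 decoy receptor, rose by 1.94 ± 0.50 in Kit-B6 and 3.53 ± 0.67 in Kit-W/sh (edgeR adjusted p = 0.00656 and 0.000919). Sigirr, an inhibitor of interleukin 1 and Toll-like receptor signalling, fell from 84.8 ± 21.7 to 21.3 ± 5.92 CPM in Kit-B6 and by a log2 fold change of -1.84 ± 0.38 in Kit-W/sh (edgeR adjusted p = 0.000439 and 0.00192). Socs1, an inhibitor of cytokine signalling, fell too (-1.24 ± 0.39 and -1.44 ± 0.43, edgeR adjusted p = 0.02 and 0.0167), and Cyld fell in Kit-W/sh by 0.50 ± 0.18 (adjusted p = 0.0333). Of these 5 genes, 1 was called higher and 2 lower with stage in Kit-B6, and 1 higher and 3 lower in Kit-W/sh. Of all genes 41.1% and 39.7% were called there. With reference-gene scaling 2 of the 5 were called in Kit-W/sh, where 218 of all genes were called higher and 106 lower. Fewer were called without either Kit-W/sh preneoplastic sample, as were fewer of all genes.

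Of 23 textbook NF-kB targets other than Nfkbia, edgeR called 0 between genotypes at either stage, while DESeq2 called 6 in tumors and 2 in preneoplastic colon. Of all genes, DESeq2 called 3.35% in tumors and 2.14% in preneoplastic colon, and edgeR 0% and 0.129%. In tumors 18 of 22 tested had a positive log2 fold change (median 0.96), and 12 had an unadjusted p under 0.05, where 13.6% of all genes did. The neutrophil chemokine Cxcl2 differed by 2.38 ± 0.61 and the inducible nitric oxide synthase Nos2 by 1.56 ± 0.40 (edgeR adjusted p = 0.154 for both). Without the library labelled Kit-W/sh tumor 2, 18 of 23 tested were positive (median 1.11) and 15 had an unadjusted p under 0.05, as did 19.3% of all genes. In preneoplastic colon 12 of 17 were positive (median 0.64, against -0.01 over all genes) and 7 had an unadjusted p under 0.05, as did 10.7% of all genes. Cxcl5 and Cxcl1, also neutrophil chemokines, differed by 2.63 ± 0.55 and 2.49 ± 0.56, and Irf1 by 0.56 ± 0.16 (edgeR adjusted p = 0.253, 0.253 and 0.327). The targets overlap with the ligand list in Tnf, Il1a and Il1b, and the list was drawn up with earlier results of these data known, so its counts are no independent evidence of a direction.

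With stage many targets rose, and no change of Nfkbia was detected. In Kit-B6, 11 of 23 targets rose and 4 fell (median 1.86), where edgeR called 22.2% of all genes higher and 18.9% lower. In Kit-W/sh 16 rose and 2 fell (median 2.43, where all genes had 0.08), against 20.9% of all genes called higher and 18.8% lower. Nfkbia was at 0.07 and -0.02. Icam1, the leukocyte adhesion receptor of endothelium, rose by 2.40 ± 0.41 and 2.67 ± 0.49 (edgeR adjusted p = 0.000313 and 0.000772), and the survival gene Bcl2l1 by 1.00 ± 0.15 and 0.79 ± 0.17 (edgeR adjusted p = 0.000114 and 0.00246). Irf1, an interferon-induced transcription factor, fell (-1.28 ± 0.22 and -1.77 ± 0.25, edgeR adjusted p = 0.000419 and 0.000136). Without Kit-W/sh preneoplastic sample 1 or 2 fewer targets were called in Kit-W/sh, and fewer of all genes as well. Leaving out a Kit-B6 sample gave 11 to 18 called targets in that genotype, where 265 to 425 of all genes were called.

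**Figure D4:**
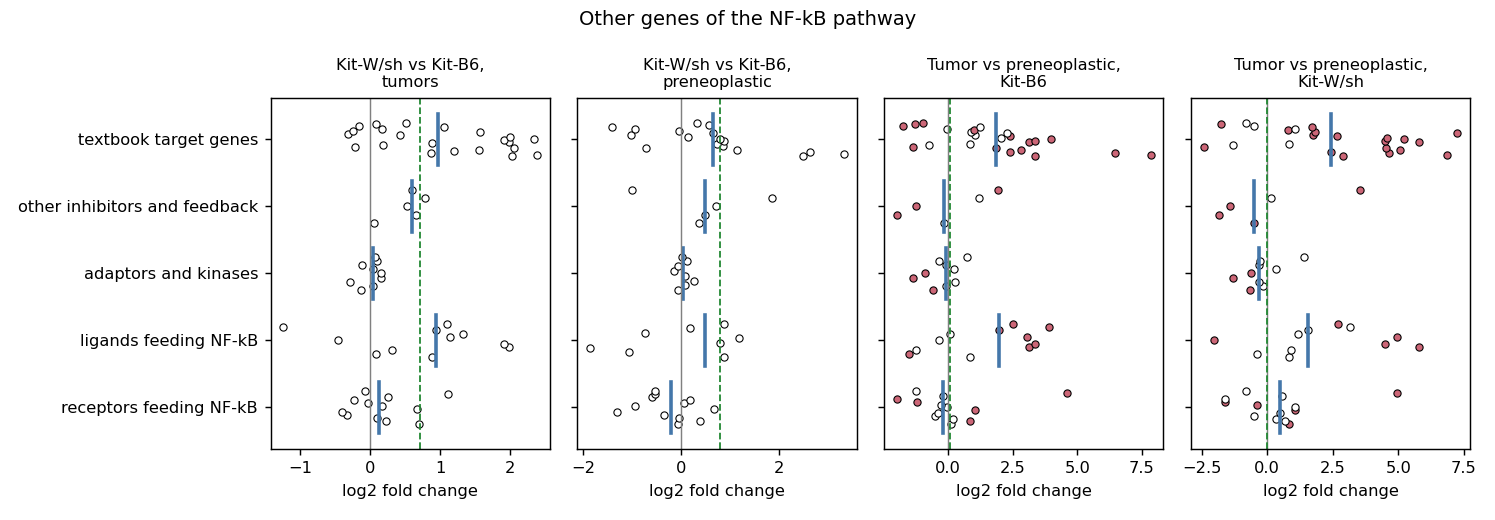
Log2 fold change (x axis, edgeR; ranges differ between panels) of the other measured pathway genes in 5 lists, in the 2 genotype and 2 stage comparisons. Points are genes, filled where they passed the adjustment over all genes, bars are list medians, and the dashed line is Nfkbia, which lies near 0 between stages while target medians lie at 1.86 and 2.43.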

How the data were processed

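Per the labels' protocols, colon RNA of 17 samples was read on a MiSeq after multiplex amplification with a targeted mouse immuno-oncology panel. What the authors deposited were raw whole-number counts per panel gene, without a statement in the headers whether reads or molecular tags were counted. The submitters' processing notes name mm9 and DESeq2. Aligner and counter are not given in the sources used here, nor amplicon positions. Of 993 entries, 5 control amplicons (0 counts in all libraries) were left out.

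Counts were tested in R 4.3.3 with edgeR 4.0.16: TMM scaling, filterByExpr (minimum count 10, minimum total 15), quasi-likelihood test with robust fitting (two-sided), Benjamini-Hochberg adjustment over all genes tested, threshold 0.05. Genotypes were compared within a stage on its own libraries. Stage and interaction contrasts came from 1 fit of 17 libraries. Errors after ± are SE for log2 fold changes and SD for levels. DESeq2 1.42.0 was an alternative, as were relative log expression, unscaled totals and scaling by the 9 last-listed reference genes, no filter, a replicate block and each library left out. Ratios used counts + 0.5, and relations used log2(CPM + 1) and 100000 permutations. The fits were tested on simulated data. Within groups all libraries differed by more than counting noise (lowest chi-square per degree of freedom 13.03).

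The genes and lists were chosen with earlier results of these data known. Named were all 4 NF-kB genes, up to 4 genes per list with the smallest p in a comparison, and the 5 genes most like Nfkbia. Ikbkb in the stage comparison was chosen after its values were seen. Recomputing the lists, relations and likeness without the library labelled Kit-W/sh tumor 2 was chosen after seeing the data.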

Additional observations from a re-analysis of the deposited data

Results flagged for a closer look

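Among 10 combinations of a tumor group with a gene or the Nfkbia ratio, 1 sample stood far from the others of its group: Nfkbib in Kit-W/sh tumor 4, at 1022 CPM against 729 to 838 CPM in the other 5 Kit-W/sh tumors. Chance alone flags about 1 in 20 such groups. The Nfkbib genotype difference in tumors was 0.26 ± 0.12 with that tumor and 0.17 ± 0.12 without it (edgeR adjusted p = 0.386 and 0.628).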

How the results depend on the processing

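Replicates per group (2 to 6) and the spread between tumors limit what could be called, and levels cannot be compared between genes. Over its alternatives the Nfkbia genotype difference stayed positive, at 0.57 to 0.88 over 19 in tumors (adjusted p from 0.0798 to 0.5003) and 0.65 to 0.86 over 12 in preneoplastic colon (0.0214 to 0.997). Where values below changed, the cause was not tested.

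DESeq2 called 27 genes in tumors, 20 in preneoplastic colon, with 1 of the 4 NF-kB genes (Nfkbia, 0.79, adjusted p = 0.0214), and 1 in the interaction, against 0, 1 and 0 by edgeR. In preneoplastic colon 0 genes were called with unscaled totals, with scaling by the last-listed reference genes, with the replicate block or with all 17 libraries. Unscaled totals gave 0.00347 for Rela in preneoplastic colon, and in the Kit-W/sh stage comparison 0.22 for Nfkbia and 0.13 for Nfkbib, with 2 NF-kB genes called. Reference-gene scaling gave -0.12 for Nfkbib in preneoplastic colon, 0.14 for Nfkbia and 0.064 for Nfkbib in the Kit-W/sh stage comparison, where 2 were called, and interaction values of 0.046 for Nfkb1, 0.10 for Nfkbia and 0.16 for Rela.

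Leaving out 1 library at a time gave -0.0031 to 0.17 for Nfkb1 in tumors, and in preneoplastic colon -0.095 to 0.076 for Nfkbib, -0.16 to 0.17 for Rela and 0 to 16 genes called (16 without Kit-B6 sample 1). Nfkbia gave -0.10 to 0.15 between stages in Kit-B6, -0.15 to 0.10 in Kit-W/sh and -0.22 to 0.076 in the interaction, where Rela gave -0.30 to 0.048 and 0 to 2 genes were called. The averaged genotype difference of Rela ran from -0.11 to 0.063. Of the 4 genes, 1 to 3 were called between stages in Kit-B6 and 0 to 1 in Kit-W/sh, where 132 to 367 genes were called in all (132 and 159 without preneoplastic sample 1 and 2). The third in Kit-B6 was Nfkbib, without tumor 3 (-0.37) or tumor 4 (-0.40). The ratio differed by 0.54 to 0.88 in tumors, -0.89 to -0.54 between stages in Kit-B6 and -0.77 to -0.54 in Kit-W/sh. In Kit-W/sh the exact p was 0.0476, the smallest possible there, without the library labelled Kit-W/sh tumor 2 or without tumor 5.

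Whether replicate numbers pair samples was not settled, because differently numbered libraries were not compared. Same-numbered libraries correlated at -0.19 to 0.39 in tumors (3 of 6 pairs over 0.1) and at -0.14 to -0.10 in preneoplastic colon. Between stages they correlated at -0.01 to 0.40 in Kit-B6 and at -0.11 to 0.06 in Kit-W/sh. With the replicate block Nfkbia differed by 0.69 ± 0.17 in tumors (edgeR adjusted p = 0.232), against 0.71 ± 0.24 without the block. With the block it differed by 0.69 in preneoplastic colon (edgeR adjusted p = 0.948) and by -0.12 between stages in Kit-B6. Nfkbib in preneoplastic colon was at -0.020 and the Rela interaction at 0.039 with the block.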
